A study of Mus musculus with 16 samples.

Results

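Transcripts of 9 transcription factors of the podocyte, Tcf21, Lmx1b, Foxc1, Foxc2, Foxd2, Nfia, Tead1, Zhx2 and Klf15, were compared between glomeruli of wild-type and Frasier mouse embryos. The members were set by name, and each was represented by the transcript cluster (the array's gene-level unit) with the highest mean over the arrays. All 9 were found, among 18340 gene symbols in the gene-level table, and 90 probe sets of the exon-level table carried their symbols. RNA came from glomeruli of 8 embryos late in gestation (stage E18.5), isolated with magnetic beads after perfusion and hybridised to Affymetrix mouse exon arrays. There were 4 wild-type embryos and 4 embryos that the labels call a wt1(+KTS) mutant or Frasier, all on a mixed C57Bl6 and DBA2 background with no further treatment. Each array was deposited as a gene-level and an exon-level summary, 16 samples in all, and n is 4 per genotype at either level. Zygosity, litter and the purity of the glomeruli are absent from the labels. Among the arrays, wild-type replicate 4 was the least like the rest, since its correlations ran from 0.869 to 0.918 while all other pairs lay between 0.904 and 0.960.

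Podocytes are the epithelial cells that wrap the glomerular capillaries and join to each other through the slit diaphragm. Their identity depends on WT1, a zinc finger protein that cells make in a form carrying the amino acids KTS between zinc fingers and a form lacking them; in Frasier syndrome the +KTS form is reduced. WT1 works beside other transcription factors that are switched on as podocytes mature. TCF21, also called POD1, is a basic helix-loop-helix factor that binds DNA together with E proteins. LMX1B is a LIM homeodomain factor whose loss causes nail-patella syndrome. FOXC1, FOXC2 and FOXD2 are forkhead factors, NFIA is a nuclear factor I protein, and TEAD1 is the DNA-binding partner of the coactivators YAP and TAZ. ZHX2 is a zinc finger and homeobox protein that mostly represses transcription. KLF15 is a Kruppel-like zinc finger factor induced by glucocorticoids and known to favour podocyte differentiation.

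No member was called at the gene level, where a call is a Benjamini-Hochberg adjusted p under 0.05 from limma over every transcript cluster. The count of 0 of 9 stands beside 0.827% of all 93623 clusters called (0.336% higher and 0.490% lower in the mutants), and 2 of the 9 had an unadjusted p under 0.05 beside 14.3% of all clusters. Klf15 was lower in every Frasier array, and it was the only member with probe sets called at the exon level. Zhx2 was called higher in the Frasier arrays when its probe sets were averaged. That call was lost in 5 of the 8 runs without an array. Foxd2 and Tead1 were lower in all 4 Frasier arrays without a call. Foxc2 had a higher mean with overlapping genotypes, and Tcf21, Lmx1b, Foxc1 and Nfia had means within 0.11 log2 units of the wild type.

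Upstream sequences of 3 members are shown because WT1 and Kruppel-like factors bind GC-rich DNA. RefSeq (GRCm38.p6) entries were at hand for 6 of the 9 members. Each run below is the 250 bases before the annotated start of transcription, 5′ to 3′ on the strand of the gene, with motif matches in capitals. Klf15 lies at chr6:90462326-90462575 on the plus strand, Foxd2 at chr4:114908899-114909148 on the minus strand and Tcf21 at chr10:22820144-22820393 on the minus strand. The 3 were chosen by their expression values. Klf15 and Foxd2, the members with the lowest differences, had Frasier values below all wild-type values, and Tcf21 is given as a member whose genotypes overlapped.
Klf15: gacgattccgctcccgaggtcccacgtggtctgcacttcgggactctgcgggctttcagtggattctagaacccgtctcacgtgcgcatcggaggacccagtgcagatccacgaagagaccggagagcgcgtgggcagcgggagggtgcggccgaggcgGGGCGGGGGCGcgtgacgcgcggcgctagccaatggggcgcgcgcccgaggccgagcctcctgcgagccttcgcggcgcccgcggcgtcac
Foxd2: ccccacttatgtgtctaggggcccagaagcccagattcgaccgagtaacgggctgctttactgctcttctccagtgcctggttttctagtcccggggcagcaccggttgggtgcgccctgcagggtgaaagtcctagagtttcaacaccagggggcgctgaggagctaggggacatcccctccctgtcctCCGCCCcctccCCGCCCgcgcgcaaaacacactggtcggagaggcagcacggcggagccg
Tcf21: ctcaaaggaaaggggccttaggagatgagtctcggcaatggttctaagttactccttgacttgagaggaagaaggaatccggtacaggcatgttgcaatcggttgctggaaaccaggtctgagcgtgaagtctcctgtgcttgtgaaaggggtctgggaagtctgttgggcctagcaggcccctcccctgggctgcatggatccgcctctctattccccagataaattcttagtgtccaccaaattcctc
The motifs searched on both strands were GCGGGGGCG, a site of the EGR and WT1 type, GCGTGGGAG, a site described for WT1 itself, and GGGCGG, the GC box bound by SP and Kruppel-like factors. The first was found upstream of Klf15, starting at position −89 counted from the start of transcription, and in 2.57% of 32851 RefSeq windows of the same length. It overlapped a GC box that began at −91. GCGTGGGAG was found in 0.405% of windows and in none of the 6 members. The GC box was found in 32.7% of windows, and among the members in Klf15, in Foxc1 and, on the reverse strand at −60 and −49, in Foxd2. The Tcf21 window held none of these strings of letters. A match is a description of the sequence, and binding was not measured on these arrays. Foxc1, which has a GC box, also overlapped between genotypes and is not printed. The 3 printed windows therefore do not compare lowered with unchanged members. The windows had a GC content of 72% for Klf15, 64.4% for Foxd2 and 52.4% for Tcf21.

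Klf15 (transcript cluster 6947932) stood at log2 signals of 6.80, 6.66, 6.68 and 6.71 in wild-type replicates 1 to 4. In the Frasier arrays it stood at 6.19, 6.36, 6.19 and 6.02. The highest Frasier value therefore lay below the lowest wild-type value. Wild-type arrays averaged 6.71 ± 0.066 (SD, n = 4) and Frasier arrays 6.19 ± 0.14 (SD, n = 4), for a log2 difference of −0.52 ± 0.11 (SE), with a 95% interval from −0.78 to −0.27. That is a signal 1.44-fold higher in the wild type, with a limma adjusted p of 0.0763. The exact permutation test over arrays gave p = 0.0286 (two-sided), which is the smallest value that 4 against 4 arrays allow. With the same values, limma's adjusted p was 0.0361 when dim clusters were left out before fitting. It was 0.00992 when only clusters with 1 gene symbol were fitted. These settings called 2.56% and 6.81% of their clusters. Leaving clusters out changed the variance that limma shares across clusters as well as the number of tests.

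The 4 Klf15 probe sets were all lower in the Frasier mean, and 3 of them had no overlap between the genotypes. Probe set 4337002 stood at 5.80, 5.46, 6.24 and 5.79 in the wild type and at 4.52, 4.57, 4.49 and 4.15 in the mutants. It fell by 1.39 ± 0.18 log2 units (SE, limma adjusted p = 0.00596), and this call was kept when each of the 8 arrays was left out. Probe set 4341179 stood at 7.05, 6.84, 7.06 and 6.86 in the wild type and at 6.32, 6.13, 6.40 and 5.82 in the mutants. Its difference of −0.78 ± 0.15 (SE, limma adjusted p = 0.0315) was kept only without wild-type replicate 4, and without each of the other 7 arrays in turn its adjusted p ran from 0.0525 to 0.0868. Probe set 4703147 differed by −0.71 (adjusted p = 0.0656) without overlap. Probe set 5364920 differed by −0.45 (adjusted p = 0.504), with overlapping groups. These 2 calls were the only ones among the 90 probe sets of the members, all lower, where 2.67% of all probe sets were called, 1.21% lower and 1.46% higher. Only 1 of the 4 Klf15 probe sets reached the median mean signal of the exon-level table, 6.81, and RMA compresses differences of dim probe sets.

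The mean of the 4 Klf15 probe sets, taken per array, was 6.86, 6.39, 6.60 and 6.78 in the wild type and 5.95, 6.02, 5.71 and 5.62 in the mutants. It fell by 0.83 ± 0.13 log2 units (SE, limma adjusted p = 0.00460), a larger difference than in the deposited gene-level value. The adjusted p stayed between 0.00518 and 0.0193 without each array in turn. Across the 9 members, 2 were called on this measure, Klf15 and Zhx2, beside 11.4% of 18517 genes. The deposited gene-level values equalled the mean of the named probe sets, within 0.001, for 2 members, Foxc1 and Foxc2. For the other 7 they did not, and the reason was not tested.

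**Figure D1:**
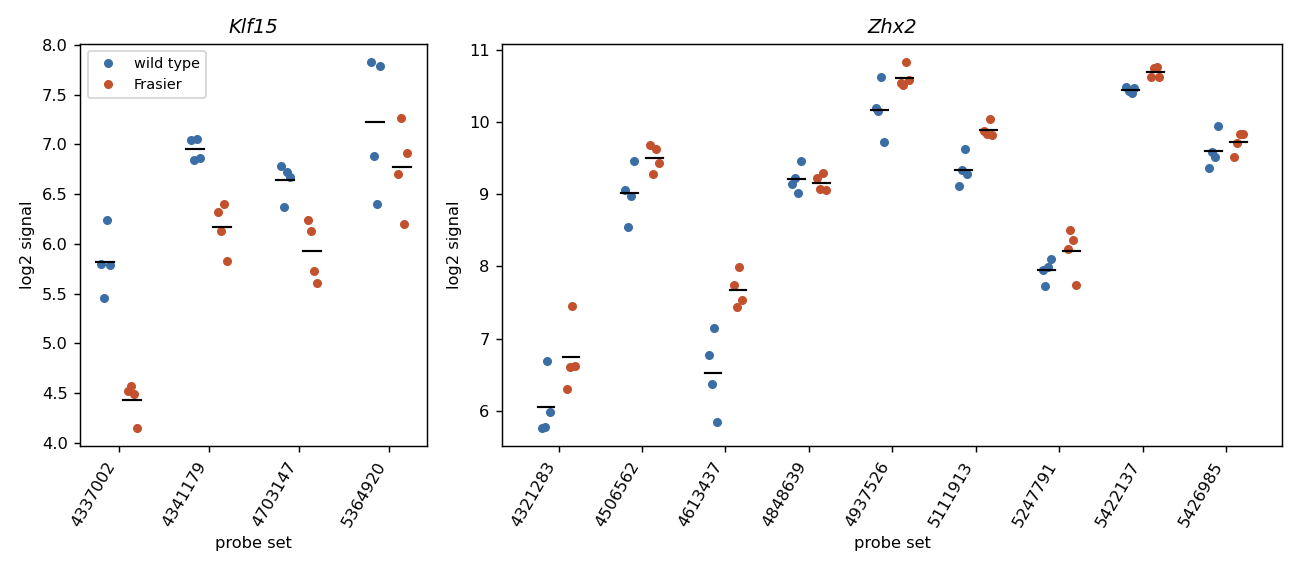
Log2 signal (vertical axis) of each probe set of Klf15 and Zhx2 (horizontal axis, in order of probe set number and not of position), with a point per array in blue for the 4 wild-type and in red for the 4 Frasier arrays and a bar at each mean. For Klf15 probe sets 4337002, 4341179 and 4703147 all Frasier points lie below all wild-type points, and for Zhx2 probe sets 4613437, 5111913 and 5422137 all lie above.

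Zhx2 (transcript cluster 6830619) differed little in the deposited gene-level value and more in its probe sets. At the gene level the wild-type arrays stood at 7.19, 7.20, 7.19 and 7.23, and the Frasier arrays at 7.27, 7.21, 7.41 and 7.44. The groups overlapped through Frasier replicate 2, and the log2 difference was 0.13 ± 0.10 (SE, limma adjusted p = 0.628). Of the 9 probe sets, 8 had a higher mean in the mutants and 3 of those had no overlap. Probe set 4613437 stood at 6.77, 6.37, 7.14 and 5.84 in the wild type and at 7.75, 7.43, 7.99 and 7.53 in the mutants. Every Frasier value exceeded every wild-type value, with a log2 difference of 1.15 ± 0.26 (SE, limma adjusted p = 0.0508). Probe set 5111913 was higher by 0.55 (adjusted p = 0.0740), and 4848639 had the lowest difference, −0.06.

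The mean of the 9 Zhx2 probe sets was 8.65, 8.57, 8.89 and 8.69 in the wild type and 9.08, 9.07, 9.35 and 9.02 in the mutants, without overlap. It rose by 0.43 ± 0.10 log2 units (SE, limma adjusted p = 0.0275). The adjusted p passed 0.05 without wild-type replicate 1 (0.0738) or 2 (0.0842) and without Frasier replicate 1 (0.0528), 2 (0.0553) or 3 (0.0758). It was 0.106 when the letter that ends each sample code was fitted as a random effect. The gene-level difference was 0.04 for Zhx1 (adjusted p = 0.898) and 0.06 for Zhx3 (adjusted p = 0.855), the other ZHX genes. Nfya, a subunit of the NF-Y complex to which ZHX proteins bind, was 0.16 higher (adjusted p = 0.515). None of these 3 genes was called.

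**Figure D2:**
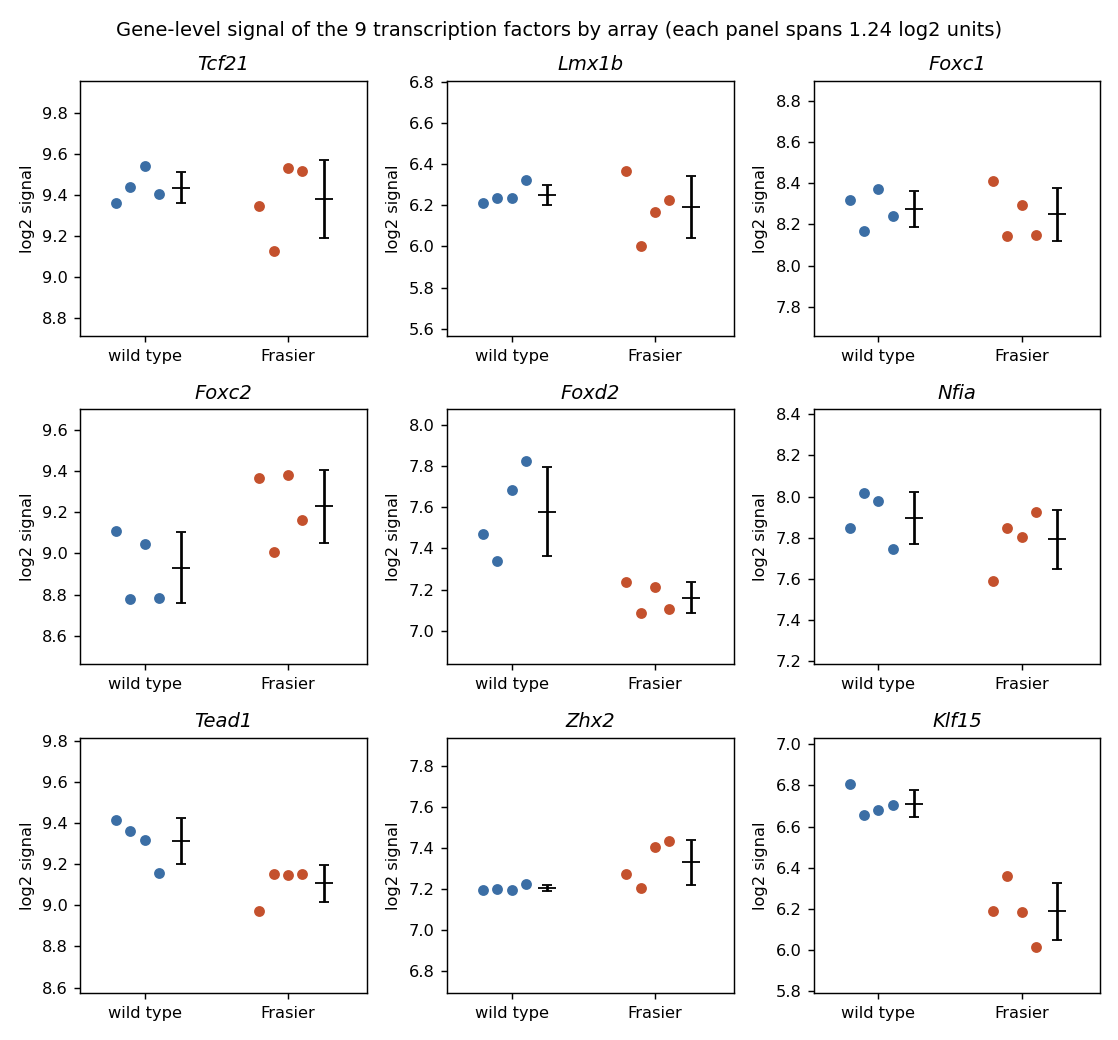
Gene-level log2 signal (vertical axis, the same span in every panel) of the 9 transcription factors in each array, with wild type in blue, Frasier in red and bars for the mean and SD of 4 arrays per genotype. Klf15, Foxd2 and Tead1 have all Frasier points below all wild-type points, and the other 6 members overlap between genotypes.

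Of the 3 forkhead members, Foxd2 had a lower mean in the mutants, Foxc2 a higher mean and Foxc1 nearly the same mean, and none was called. Foxd2 (transcript cluster 6924684) stood at 7.47, 7.34, 7.68 and 7.83 in the wild type and at 7.24, 7.09, 7.21 and 7.11 in the mutants. All Frasier values were below all wild-type values. The log2 difference was −0.42 ± 0.13 (SE, 95% interval −0.71 to −0.12, limma adjusted p = 0.199), and the exact permutation p was 0.0286 (two-sided). Foxd2, Klf15 and Tead1 made up the 3 of 9 members without overlap, all lower, where 9.54% of all clusters did not overlap and 4.74% did so with lower Frasier values. Of the 93623 clusters 71567 carry no gene symbol, and the share without overlap among named genes was not computed.

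Of the 8 Foxd2 probe sets, 7 had a lower mean in the mutants, but none was without overlap. The widest difference was in probe set 4605725, at 8.99, 8.34, 8.81 and 9.05 in the wild type and 8.44, 7.80, 8.21 and 8.01 in the mutants. It came to −0.68 ± 0.20 (SE, limma adjusted p = 0.101), and the highest, in probe set 5004804, was 0.003. The mean of the probe sets differed by −0.22 ± 0.12 (SE, limma adjusted p = 0.254), and there the genotypes overlapped, unlike at the gene level.

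Foxc2 (transcript cluster 6979575) stood at 9.11, 8.78, 9.04 and 8.78 in the wild type and at 9.37, 9.01, 9.38 and 9.16 in the mutants. Frasier replicate 2 lay within the range of the wild type. The log2 difference was 0.30 ± 0.14 (SE, 95% interval −0.01 to 0.61, limma adjusted p = 0.363), with an exact permutation p of 0.0857. All 4 Foxc2 probe sets were above 0, from 0.18 (4433213) to 0.37 (4374181), and 1 of them had no overlap. Foxc1 (transcript cluster 6805902) stood at 8.32, 8.17, 8.37 and 8.24 in the wild type and at 8.41, 8.14, 8.29 and 8.15 in the mutants. These ranges lay almost on top of each other, with a log2 difference of −0.03 ± 0.11 (SE, 95% interval −0.28 to 0.23, limma adjusted p = 0.941). Its 11 probe sets ran from −0.37 (5502564) to 0.10 (5278540), all overlapping.

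Differences between forkhead members within an array were compared after their values had been seen. The Foxc2 signal minus the Foxc1 signal averaged 0.65 ± 0.10 in wild-type arrays and 0.98 ± 0.095 in Frasier arrays (SD, n = 4 per genotype), a shift of 0.33. Foxd2 minus Foxc1 shifted by −0.39, and Foxd2 minus Foxc2 by −0.72, from −1.35 ± 0.28 to −2.07 ± 0.11. In each of the 3 pairs compared the genotypes did not overlap, and the exact permutation p was 0.0286 (two-sided), the smallest these arrays allow and unadjusted. The pairs share members, so these are not 3 separate results. They were formed from values already seen, and the share of other gene pairs without overlap was not computed. These p-values therefore lend no support to a shift between forkhead members. Among 8 forkhead relatives 0 were called in either direction, with a median log2 difference of 0.19 beside 0.03 over all 18340 symbols. Foxd3 was 0.58 higher (adjusted p = 0.178) and Foxf1 0.41 higher (adjusted p = 0.186), without overlap and without a call.

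Tcf21 (transcript cluster 6772723) stood at 9.36, 9.44, 9.54 and 9.40 in the wild type and at 9.35, 9.13, 9.53 and 9.52 in the mutants. Only Frasier replicate 2 lay clearly below the wild-type range. The log2 difference was −0.06 ± 0.12 (SE, limma adjusted p = 0.877) with a 95% interval from −0.34 to 0.22, and the exact permutation p was 0.657. All 4 probe sets were slightly below 0, from −0.13 (4347412) to −0.005 (5477239), and all overlapped. Of the 7 E protein and Id genes, which partner with or sequester helix-loop-helix factors, 0 were called, and 6 had a higher mean in the mutants with a median of 0.18. Id1 was 0.56 higher (adjusted p = 0.265) and Id3 0.37 higher (adjusted p = 0.265), neither with overlap. Of 2 measured helix-loop-helix relatives of Tcf21, Tcf23 was 0.43 higher (adjusted p = 0.0990) and Msc differed by −0.24 (adjusted p = 0.400), and neither was called.

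Lmx1b (transcript cluster 6885939) stood at 6.21, 6.24, 6.24 and 6.32 in the wild type and at 6.36, 6.00, 6.17 and 6.23 in the mutants. The mutants spread wider, with an SD of 0.15 against 0.049, and enclosed the wild type. The log2 difference was −0.06 ± 0.11 (SE, 95% interval −0.31 to 0.20, limma adjusted p = 0.850). Its 8 probe sets ran from −0.25 (4575696) to 0.26 (4919212), with 4 at or above the median signal of the table and none without overlap. Of the 8 LIM homeobox and cofactor genes 0 were called. Ldb2, a LIM-domain-binding cofactor, differed by −0.43 (adjusted p = 0.140) and Lhx1, which acts early in nephron formation, by 0.32 (adjusted p = 0.249), both without overlap.

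Genes reported as targets of LMX1B were lower in the mutants where they encode collagen chains. Col4a3 fell by 1.38 ± 0.12 log2 units (SE, limma adjusted p = 0.00194) and Col4a4 by 0.96 ± 0.098 (adjusted p = 0.00380), both chains of the mature glomerular basement membrane. Cd2ap, a slit diaphragm adaptor, differed by 0.03 (adjusted p = 0.925). In all, 2 of 3 measured genes of this list were called lower, where 0.490% of all clusters were called lower. The list is short and was chosen with earlier results of these data known, so these shares are not a test of LMX1B targets. These 3 genes are also among the podocyte genes described below.

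Nfia (transcript cluster 6915619) stood at 7.85, 8.02, 7.98 and 7.74 in the wild type and at 7.59, 7.85, 7.80 and 7.93 in the mutants. The groups overlapped, with a log2 difference of −0.11 ± 0.12 (SE, limma adjusted p = 0.738). Its 20 probe sets pointed both ways, 10 below and 10 above 0, from −0.42 (4800141) to 0.59 (5034605). Of these, 1 was without overlap on the lower side and 4 on the higher. The mean of the 20 probe sets differed by 0.04 ± 0.084 (SE, limma adjusted p = 0.779), opposite in sign to the gene-level value. The 3 other nuclear factor I genes were each slightly lower without a call, Nfic by −0.23 (adjusted p = 0.487), Nfix by −0.13 (0.629) and Nfib by −0.12 (0.727).

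Tead1 (transcript cluster 6963548) stood at 9.42, 9.36, 9.32 and 9.16 in the wild type and at 8.97, 9.15, 9.15 and 9.15 in the mutants. The groups were separated by less than 0.01, between wild-type replicate 4 and Frasier replicate 2. The log2 difference was −0.21 ± 0.11 (SE, 95% interval −0.46 to 0.04, limma adjusted p = 0.436), with an exact permutation p of 0.0286 (two-sided). Another 3 clusters carry the symbol. Cluster 6970529 stood at 8.70, 8.74, 8.93 and 9.01 in the wild type and at 8.40, 8.09, 8.51 and 8.32 in the mutants, a log2 difference of −0.52 ± 0.13 (SE, limma adjusted p = 0.122) without overlap. Cluster 6970525 differed by −0.22 (adjusted p = 0.401) without overlap and cluster 6970524 by 0.09 (adjusted p = 0.750) with overlap, so the clusters did not share a direction.

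The 22 Tead1 probe sets ran from −0.52 (5099100) to 0.44 (4885567), and 6 of them had no overlap, all lower. Probe set 5099100 held the same array values as cluster 6970529, so these are not separate measurements. The mean of the 22 probe sets differed by −0.06 ± 0.075 (SE, limma adjusted p = 0.665). Of 9 TEAD relatives and coactivators 0 were called, with a median log2 difference of −0.02. Vgll4, a cofactor that competes with YAP for TEAD proteins, was the closest to a call, lower by −0.23 (adjusted p = 0.347). Of 10 target genes of YAP and TEAD proteins, 1 rose and 1 fell. Ankrd1, a nuclear ankyrin repeat protein, rose by 1.13 ± 0.12 log2 units (SE, limma adjusted p = 0.00423). Ccn2, a secreted matricellular protein, fell by 0.83 ± 0.16 log2 units (SE, limma adjusted p = 0.0476), and the call was lost in 7 of the 8 runs without an array (highest adjusted p 0.136). The median of the 10 was −0.02, and Amotl2 and Crim1 differed by −0.32 (adjusted p = 0.323) and −0.25 (0.354).

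**Figure D3:**
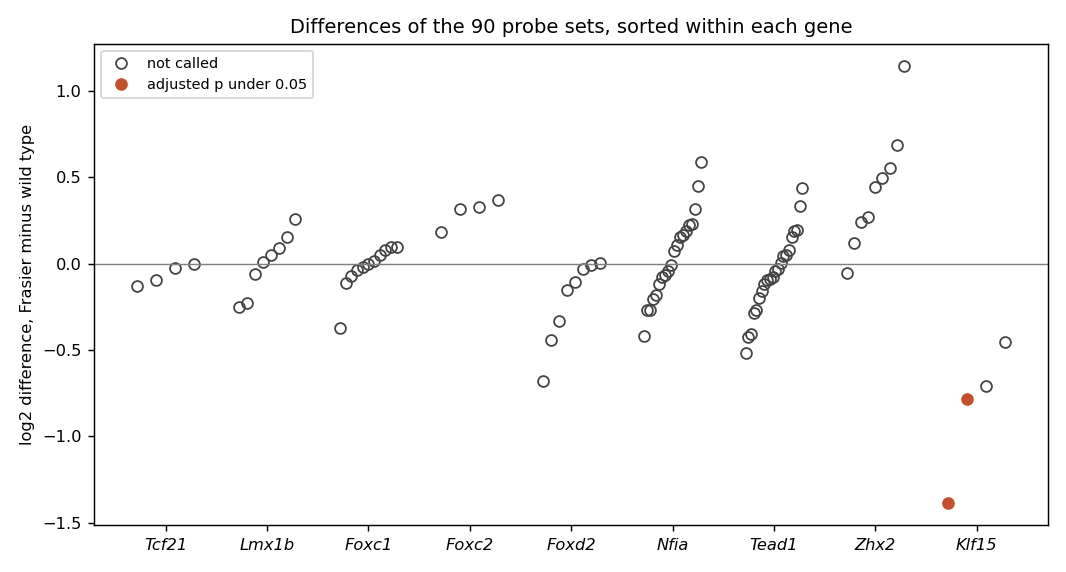
Log2 difference, Frasier minus wild type (vertical axis), of each of the 90 probe sets of the 9 genes (horizontal axis), sorted by value within a gene and not by position. Filled red points passed an adjusted p of 0.05 and are the 2 Klf15 probe sets at −1.39 and −0.78, while the probe sets of Nfia, Tead1, Lmx1b and Foxc1 lie on both sides of 0.

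Over all 90 probe sets, 47 differences lay below and 43 above 0. An unadjusted limma p under 0.05 was reached by 20 of the 90, beside 19.5% of all probe sets. Without overlap were 10 on the lower and 8 on the higher side, beside 5.49% and 7.53% of all probe sets. Exon usage, the value of a probe set relative to the mean of its gene on the same array, could be tested for 75 probe sets of 8 members, not for Klf15. Limma called 0 of these, beside 0.514% of 128668 probe sets. The lowest adjusted p for usage was 0.101 for Nfia, 0.104 for Tead1 and 0.104 for Zhx2. A test that pools a gene's probe sets, limma's diffSplice F test, called Tead1 (adjusted p = 6.45e-05) and Zhx2 (0.00811), 2 of 8 members where it called 27.6% of 10277 genes.

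Of 12 Kruppel-like relatives of Klf15 0 were called, 10 had a higher mean in the mutants, and the median log2 difference was 0.20. Klf10 stood 0.57 higher (adjusted p = 0.0698) and Klf5, an epithelial factor, 0.54 higher (adjusted p = 0.0790), both without overlap. Of 5 genes of amino acid catabolism that KLF15 is known to control in muscle and liver, 0 were called, with a median of −0.02. Prodh differed by 0.15 (adjusted p = 0.558) and Bcat2 by −0.11 (adjusted p = 0.692). Among 9 other podocyte and nephron factors, Hey1, a Notch target, rose by 0.79 ± 0.13 log2 units (SE, limma adjusted p = 0.0299), and the call was lost in 6 of the 8 runs without an array (highest adjusted p 0.0980). Sall1 was 0.49 higher (adjusted p = 0.0698) and Pax2, which podocytes switch off as they mature, 0.29 higher (adjusted p = 0.261).

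Structural genes of the podocyte were described on the same arrays. Of 13 podocyte differentiation genes measured, from a list of 16, 4 were called lower and 0 higher, with a median log2 difference of −0.40 beside −0.06 over the 9 members. Col4a3 and Col4a4 are given above, Ptpro, a receptor phosphatase of the podocyte surface, fell by 1.27 ± 0.12 (SE, limma adjusted p = 0.00311), and Clic5, which links the membrane to actin, fell by 0.80 ± 0.13 (adjusted p = 0.0265). The call of Clic5 was lost in 6 of the 8 runs without an array (highest adjusted p 0.0905). Synpo and Nphs1, which encodes nephrin, differed by −0.69 (adjusted p = 0.0626) and −0.48 (adjusted p = 0.111). Whether this list and the 9 factors differ was not tested.

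**Figure D4:**
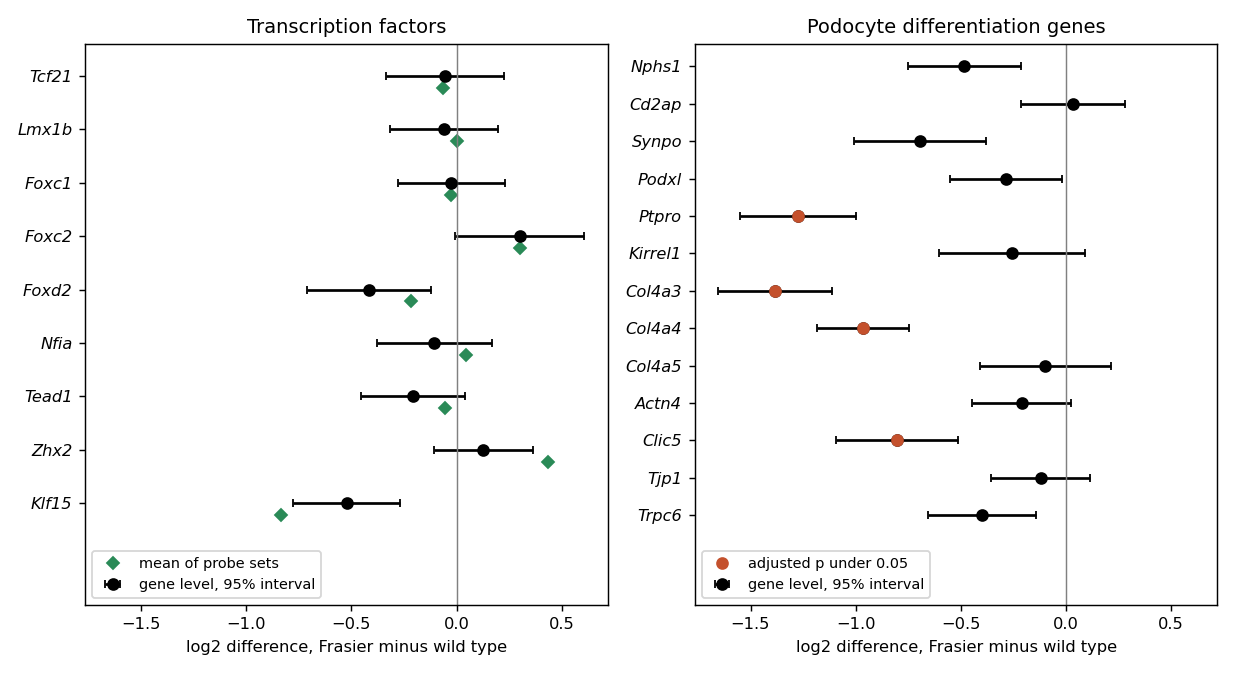
Log2 difference, Frasier minus wild type (horizontal axis), of the 9 transcription factors (left) and 13 podocyte differentiation genes (right), with circles for the gene-level value, bars for its 95% interval and, on the left, green diamonds for the mean of the probe sets. Red circles on the right passed an adjusted p of 0.05 and are Ptpro, Col4a3, Col4a4 and Clic5, while no gene-level circle on the left did.

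Markers of cell types were measured beside these values. The mean log2 signal of 8 podocyte markers ran from 8.84 to 9.03 in the wild-type arrays and from 8.22 to 8.48 in the mutants. Of these markers 8 of 8 were lower and 3 were called (1 to 3 without each array in turn). Wt1, a podocyte marker and the mutated gene, was not called (−0.11 ± 0.11 SE, limma adjusted p = 0.701), and no probe set here is known to lie at the KTS codons. The mean of 8 endothelial markers ran from 9.28 to 9.47 and from 8.88 to 8.94, with 1 called lower, and that of 7 mesangial and muscle markers from 8.54 to 8.74 and from 8.34 to 8.62, with 0 called. The mean of 7 nephron progenitor markers ran from 7.22 to 7.39 and from 7.73 to 7.88, with 4 called higher (2 to 4 without each array), and that of 6 parietal epithelium markers from 7.74 to 7.94 and from 8.46 to 8.74, with 2 called higher (1 to 3). Proximal tubule markers were lower, from 9.11 to 9.35 and from 8.30 to 8.67, with 4 of 8 called (1 to 4). The 8 stromal, 6 leukocyte and 4 erythroid markers had 0 calls, and 1 of 6 loop and distal markers was called higher (0 to 1). In the wild-type arrays the mean of the proximal tubule markers lay above the median mean signal of the gene-level table, 6.04. Transcripts of tubule markers were therefore detected in these preparations. How much tubule RNA was present was not measured, since signals of different genes also depend on their probes. Which cells a member's signal came from cannot be told from these arrays. In RNA of whole glomeruli, fewer cells of a type and less RNA per cell cannot be told apart, and the part of these markers in the results was not tested.

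The podocyte reference held 6 measured genes, Nphs1, Podxl, Synpo, Ptpro, Cdkn1c and Clic5, and not the markers Wt1 and Dach1, whose differences of −0.11 and −0.09 were the closest to 0. When its mean on each array was subtracted from every cluster, the members' differences were positive, from 0.24 for Klf15 to 1.07 for Foxc2. On that scale limma called 7 of 9 members, all but Foxd2 (0.35, adjusted p = 0.0526) and Klf15 (adjusted p = 0.182), but it called 81.2% of all clusters too. The reference genes themselves were lower in the mutants, so subtracting their mean raised every cluster's difference by the same amount. Klf15 and Foxd2, the members lowest before, stayed the lowest by construction, which is not a result of its own. With all 8 measured podocyte markers as the reference, a choice made after seeing the data, limma called 64.3% of all clusters and the same number of members, 7. Klf15 then came to 0.08 (adjusted p = 0.627) and Foxd2 to 0.18 (adjusted p = 0.253). Without wild-type replicate 4, the array least like the rest, the gene-level difference of Klf15 was −0.53 (limma adjusted p = 0.104), that of Foxd2 −0.34 (0.273) and that of Tead1 −0.26 (0.330). On the mean of probe sets, limma still called Klf15 (−0.79, adjusted p = 0.0126) and Zhx2 (0.43, adjusted p = 0.0492) without that array. A letter at the end of the sample code, of unstated meaning, was never shared by the genotypes, so what it marks cannot be told apart from genotype. In order of replicate the letters were c, c, c and d in the wild type and a, e, e and e in the mutants. The main tests treat arrays as independent, and if arrays with the same letter share a source there are fewer separate units.

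For each member, the genes with the most similar profile over the 8 arrays were taken among 5193 brighter clusters. These correlations include the difference between genotypes and shared array effects, and with 8 arrays and so many clusters high values are common. The profile of Klf15 was most like that of Acer2, an alkaline ceramidase (Pearson r = 0.99), which fell by 0.85 log2 units (limma adjusted p = 0.0229), and Sostdc1, an antagonist of BMP and Wnt signals (r = 0.98, log2 difference −0.49). That of Foxd2 was most like those of Podxl, which encodes podocalyxin on the podocyte surface (r = 0.98), and Jcad, a junction protein of endothelium (r = 0.97). Foxc2 was closest to Cstf1 and Arel1 (r = 0.98 each), Tead1 to Fndc3b and Wwc2 (0.97 each), and Zhx2 to Plk1 (0.97) and Ppp1ca (0.96). Nfia was closest to Spred1 (0.97) and Ywhaq (0.95), Foxc1 to Gosr2 (0.96) and Gemin7 (0.94), Lmx1b to Arhgef7 (0.94) and Zfp748 (0.90), and Tcf21 to Prpf19 (0.94) and Gpr143 (0.91).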

How the data were processed

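RNA of glomeruli from 8 embryos was measured on exon arrays, 4 per genotype. The authors deposited log2 values from RMA and Partek with the mm9 build of the mouse genome, as the submitters' processing notes state without versions. That the base is log2 was read from the span of the deposited values, 3.57 to 14.9. RMA corrects background, normalizes quantiles and summarises probes, which compresses differences of dim genes. Array data have no read depth, and the number of arrays limits the precision.

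The gene level held 93623 clusters (20771 with 1 symbol, 1285 with several and 71567 with none after updating names) and the exon level 375483 probe sets. Symbols came from the platform annotation and were updated through RefSeq (GRCm38.p6). By that step 64 clusters with several names became 1 symbol, the Tead1 cluster among them. Positions of probe sets were not used here.

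Differences, mutant minus wild type, were fitted with R 4.3.3 and limma 3.58.1 by lmFit and then eBayes (two-sided), without covariates or filter, with Benjamini-Hochberg adjustment over every row and a threshold of 0.05. Exon usage was the probe set minus the mean of its gene's probe sets on the same array, for probe sets with 1 symbol and a mean at or above the 50th percentile in genes with at least 3 of them. Single members were also tested with exact permutation tests (scipy 1.17.1). Each fit was tested on simulated data. The members and gene lists were chosen with earlier results of these data known. Within lists, every called gene and up to 2 more of smallest p are named. For each member the called probe sets and those of highest and lowest difference are named, and the 2 genes with the most similar profile. Cell type markers are given as lists. Genes and probe sets named beyond this rule were chosen after their values were seen. Labels do not say whether arrays with the same replicate number share a litter.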

Additional observations from a re-analysis of the deposited data

Results flagged for a closer look

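In 4 of 56 groups of 4 arrays examined for the members, 1 array stood far from the other 3 by Dixon's criterion. Chance gives about 1 in 20, but only for groups not chosen by their values. The probe sets examined were those called or of highest and lowest difference, so this rate does not apply to them. At the gene level Tead1 was 8.97 in Frasier replicate 1 against 9.15 in each of the other mutants. Lmx1b probe set 4919212 was 6.40 in Frasier replicate 1 against 5.58 to 5.69 in the other mutants. Lmx1b probe set 4575696 was 7.94 in wild-type replicate 4 against 7.00 to 7.13 in the other wild types. Foxd2 probe set 5004804 was 5.33 in wild-type replicate 2 against 5.80 to 5.89 in the other wild types.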

How the results depend on the processing

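The direction of Klf15, Foxd2, Tead1, Foxc2, Nfia and Zhx2 at the gene level held without each array in turn. The number of clusters called, 774, was 185 with the replicate block, 258 with the letter as random block, 1311 with array weights, 1199 with dim rows left out, 1415 among 1-symbol rows, 2107 with the mean of probe sets, 75992 relative to podocyte genes, 60226 relative to all measured podocyte markers, and 268 to 758 without each array. Members called, 0, came to 1 (Klf15) with dim rows left out, 1 among 1-symbol rows, 2 with the mean of probe sets and 7 relative to podocyte genes or to all measured markers. Probe sets called, 10035, numbered 2831 with the letter, 15378 with weights, 16875 with trend and robust options and 3513 to 9913 without each array. Member probe sets called, 2, numbered 4 with the replicate block, 1 with the letter, 4 with weights, 4 with trend and robust options, 6 among 1-symbol rows and 1 to 3 without each array. Usage calls, 661, numbered 115 with the replicate block, 54 with the letter, 1912 with weights, 1144 with trend and robust options, 300 with the median, and 81 to 1958 without each array; the F test called 2833 genes, 2 of them members, and 0 to 2 member probe sets were called without an array. The member count on the mean of probe sets, 2, was 1 with the letter and 1 to 2 without each array.

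Relative to podocyte genes the sign turned for Tcf21 (0.71), Lmx1b (0.71), Foxc1 (0.74), Foxd2 (0.35), Nfia (0.66), Tead1 (0.56) and Klf15 (0.24), since that scaling subtracts a mean that was lower in the mutants; relative to all measured markers these were 0.55, 0.54, 0.58, 0.18, 0.50, 0.39 and 0.077. With the mean of probe sets Lmx1b came to 0.0034 and Nfia to 0.042, and with the letter Tcf21 probe set 5477239 came to 0.034. Without single arrays, Tcf21 ranged from −0.11 to 0.029, Lmx1b from −0.12 to 0.0026, Foxc1 from −0.079 to 0.0093, Tcf21 probe set 5477239 from −0.18 to 0.12, Foxd2 probe set 5004804 from −0.12 to 0.10 and Zhx2 probe set 4848639 from −0.12 to 0.027. The causes of the other changes were not tested. Whether the replicate numbers pair the arrays is not known: correlations of deviations for the same number were −0.005, 0.069, 0.263 and 0.204. The most similar Frasier array had the same number for wild-type replicates 3 and 4, but not for 1 and 2. The alternatives to the mean of probe sets, the second Tead1 cluster (−0.52) and the reference of all measured markers were chosen after seeing the data.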
